A study of Mus musculus with 2 samples.

Results

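Peptide hormones of the gut were followed through 9 genes, Gip, Cck, Sct, Ghrl, Nts, Tac1, Sst, Gcg and Pyy, chosen by their symbols, and all 9 were found among the 31205 gene symbols of the count matrix. The cells came from crypts, the gland-like pits that hold the stem cells of the gut lining, of the duodenum of wild-type mice in the groups ES and NT, in a series whose title names chronic stress and ageing of intestinal stem cells. The labels spell out neither abbreviation and give no age or sex. Each group was 1 pool of crypt cells from 5 animals, so there were no replicates and the spread between animals is unknown. Barcodes end in the number 2 or 1, taken here to mark the libraries, and no label ties a number to ES or NT. Values are therefore given for library 2 and library 1, each ratio is that of library 2 to library 1, and no direction between ES and NT was drawn. No comparison has a test, and every 95% interval (exact Poisson for UMIs and their ratios, Clopper-Pearson for shares of cells) covers counting error only. A UMI, or unique molecular identifier, stands for 1 captured RNA molecule.

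Enteroendocrine cells are scattered hormone-secreting cells of the gut epithelium that store peptides in dense granules together with chromogranins and release them on contact with nutrients. Their classic subtypes are named by letters: K cells make GIP, I cells make cholecystokinin, L cells make peptides cut from proglucagon and peptide YY, D cells make somatostatin, and X cells make ghrelin. Enterochromaffin cells make serotonin with the enzyme TPH1, and many of them in the mouse small intestine also express Tac1. The same cell often holds several of these hormones, and a cell can change its hormones as it moves from crypt to villus.

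The genes are all protein coding in the mouse build mm10 with GENCODE M21. Gip lies on chromosome 11 from 96024545 to 96030831, Cck on chromosome 9 from 121489824 to 121495694, and Sct on chromosome 7 from 141278330 to 141279133. Ghrl lies on chromosome 6 from 113716119 to 113719880 and Tac1 on the same chromosome from 7554879 to 7565834. Nts lies on chromosome 10 from 102481756 to 102490486, Sst on chromosome 16 from 23889573 to 23890958, Gcg on chromosome 2 from 62474530 to 62483650, and Pyy on chromosome 11 from 102106676 to 102107832.

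Cck shared cells with Gip, Sct and Gcg, and the bases just before the starts of these 4 genes are shown for that reason. Each is the 100 bases upstream of the RefSeq transcription start in GRCm38.p6, read on the gene's strand: chr11:96024445-96024544 (plus strand) for Gip, chr9:121495695-121495794 (minus) for Cck, chr7:141279134-141279233 (minus) for Sct and chr2:62483654-62483753 (minus) for Gcg. Capitals mark matches to AGATAA, the letters of a GATA site searched on both strands, and to TATAA, the letters of a TATA box searched on the strand shown.
Gip: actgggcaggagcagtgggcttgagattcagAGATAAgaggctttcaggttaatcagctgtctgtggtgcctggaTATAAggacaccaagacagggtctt
Cck: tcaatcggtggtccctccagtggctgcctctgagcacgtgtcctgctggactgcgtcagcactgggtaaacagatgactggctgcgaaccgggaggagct
Sct: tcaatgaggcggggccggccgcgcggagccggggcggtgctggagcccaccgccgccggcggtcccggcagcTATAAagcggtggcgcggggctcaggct
Gcg: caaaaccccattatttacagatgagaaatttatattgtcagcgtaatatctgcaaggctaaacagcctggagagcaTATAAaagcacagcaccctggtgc
AGATAA was in the Gip window alone of these 4, and 3.59% of 32851 such windows of annotated mouse genes held it. TATAA was in the Gip, Sct and Gcg windows and in 7.48% of all windows. The E-box letters CANNTG, bound by factors such as NEUROD1 and left in lower case, occurred at 1 place for Gip, 2 for Cck, 1 for Gcg and none for Sct, and were in 34.4% of all windows. TGACGTCA, the full cAMP response element, was in none of the 4 and in 1.15% of all windows. These matches describe letters only and show no binding, and no capitalised match overlaps another motif searched.

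The files held 6446 barcodes with 54877667 UMIs in library 2 and 6310 barcodes with 54316199 UMIs in library 1. Kept cells had 500 or more genes and no more than 25% mitochondrial UMIs, and numbered 3727 in library 2 and 4057 in library 1, with medians of 11800 and 10854 UMIs per cell. Of the barcode sequences, 40 occurred with both numbers, 13 of them among kept cells. Barcodes in the files have 27 bases, more than the droplet kit named in the labels uses.

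Hormones were read in chromogranin-positive cells, those with at least 5 UMIs of Chga and Chgb together, the genes of chromogranins A and B. There were 131 such cells in library 2 and 88 in library 1, with medians of 11074 and 11159.5 UMIs. Clustering gave 1 enteroendocrine-like class, in which all 15 enteroendocrine markers were detected, with 108 cells in library 2 and 90 in library 1. Gip, Cck, Sst, Tac1, Ghrl and Gcg were among the 10 leading genes of that class, so its hormone levels are a description and no independent measure.

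The chromogranin threshold and the class overlapped in 92 cells of library 2 and 69 of library 1, and this overlap sets how the ratios below read. Outside the class lay 39 chromogranin-positive cells in library 2 and 19 in library 1, of which 37 and 7 had fewer than 10 chromogranin UMIs. They were deep cells, with medians of 27372 and 16713 UMIs, and held 57.0% of all UMIs of the chromogranin-positive cells in library 2 and 26.6% in library 1, yet only 138 and 45 hormone UMIs. None of them had 20 UMIs of any hormone. Of these cells, 7 in library 2 and 1 in library 1 were Paneth-like, and 15 and 0 were in an unnamed cluster led by Ccl20, Reg3g and Reg3b. Paneth markers came to 45047 CPM (UMIs per 1000000 UMIs) over the chromogranin-positive cells of library 2 and 10925 CPM over those of library 1. They came to 5655 and 4113 CPM in the enteroendocrine-like class, and to 30267 and 29632 CPM in the other kept cells. All 11 Paneth markers and all 17 enterocyte markers were detected in both sets of chromogranin-positive cells, while 7 of 9 stromal or endothelial markers were at 0 in library 2 and 8 of 9 in library 1. All 12 stem, 14 cycling progenitor, 12 goblet and 13 lymphocyte markers were detected in both sets too, so detection does not single out a cell type. Because the chromogranin-positive cells outside the class were deep and held few hormone UMIs, each ratio was repeated in the class. The class leaves those cells out and also takes in class cells below the threshold. Over the chromogranin-positive cells of the class alone, a choice made after seeing the data, the ratios were 7.62 for Gip, 2.49 for Cck, 1.71 for Sct, 1.76 for Ghrl, 1.52 for Tac1, 1.11 for Sst and 2.73 for Gcg.

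Just inside the threshold, at 5 or 6 chromogranin UMIs, stood 33 cells of library 2 and 2 of library 1, and no hormone reached 5 UMIs in any of them. Just outside, at 3 or 4, stood 300 and 96 cells. Gip was at 39.9 CPM in the cells just inside and 54.7 CPM in those just outside in library 2, and at 0 and 6.60 CPM in library 1.

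The hormones made up 1.49% of all UMIs of the chromogranin-positive cells in library 2 and 0.950% in library 1, and up to 27.3% and 34.3% of the UMIs of 1 cell. In these cells all 9 were detected in library 2 and 7 in library 1. Between 76.9% and 89.7% of the kept UMIs of Gip, Cck, Ghrl, Tac1 and Gcg lay in chromogranin-positive cells, in either library. For Sct the share was 53.2% in library 2 and 52.3% in library 1. For Sst it was 80.9% and 52.9%, and 1 cell of library 1 outside the threshold, with 2 chromogranin UMIs, had 1091 Sst UMIs. Counts come from 3' tags whose capture differs between transcripts, so levels are compared between libraries and classes and not between genes.

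**Figure D1:**
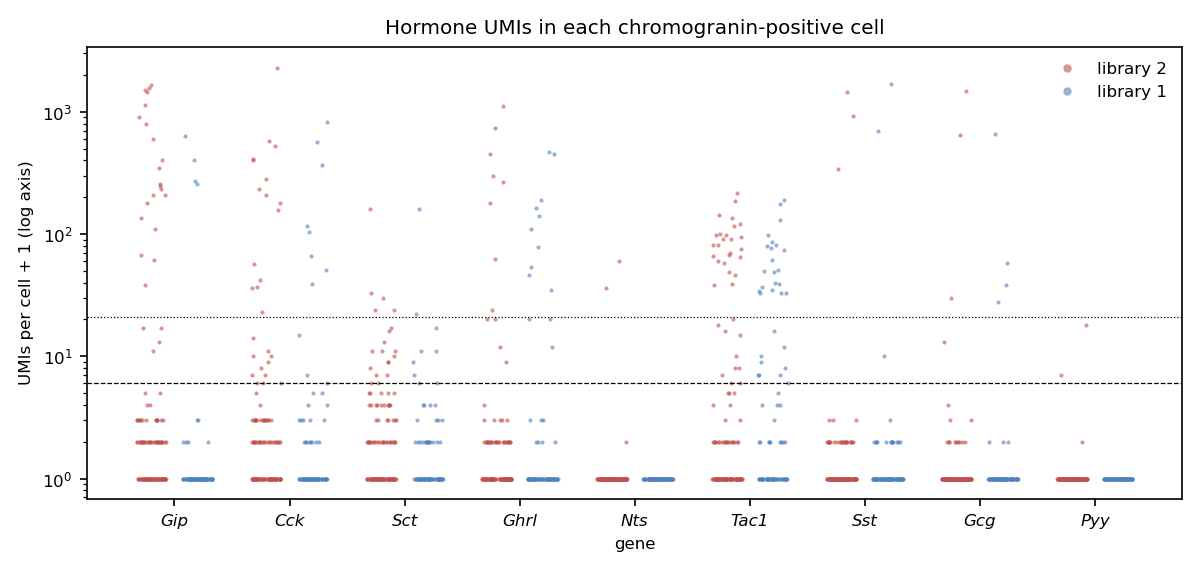
UMIs of each hormone gene in every chromogranin-positive cell, plus 1, on a log axis, with the 131 cells of library 2 left of the 88 cells of library 1 for each gene. Each point is 1 cell, the dashed line marks 5 UMIs and the dotted line 20 UMIs. Gip passed 20 UMIs in 21 cells of library 2 and 4 of library 1, while Tac1 did so in 25 and 21 cells, and Nts and Pyy had UMIs in these cells in library 2 and none in library 1.

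Gip, the glucose-dependent insulinotropic peptide of K cells, had the largest ratio of the 7 genes with at least 100 UMIs. In chromogranin-positive cells it had 12257 UMIs or 6309 CPM in library 2 (6198 to 6422) and 1568 UMIs or 1409 CPM in library 1 (1340 to 1480). The ratio was 4.48 (4.25 to 4.72), and 7.97 (7.57 to 8.39) in the enteroendocrine-like class, where the levels were 13031 and 1635 CPM. More cells carried it: 21 of 3727 kept cells in library 2 had at least 20 Gip UMIs, or 0.563% (0.349 to 0.860), and 5 of 4057 in library 1, or 0.123% (0.0400 to 0.287), so the intervals did not overlap. Among these cells the median was 258 UMIs in library 2 and 269 in library 1, close to level. The highest cell had 1669 UMIs and held 13.6% of the Gip UMIs of library 2, and in library 1 the highest had 632 and held 40.3%.

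Cck encodes cholecystokinin, which triggers gallbladder contraction and pancreatic enzyme release. It had 5604 UMIs or 2884 CPM in library 2 and 2193 UMIs or 1970 CPM in library 1, a ratio of 1.46 (1.39 to 1.54) in chromogranin-positive cells and 2.62 (2.49 to 2.75) in the class. In library 2, 1 cell with 2301 UMIs held 41.1% of the Cck UMIs. At least 20 UMIs were found in 16 kept cells of library 2, or 0.429% (0.246 to 0.696), and in 11 of library 1, or 0.271% (0.135 to 0.485), and these intervals overlapped.

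Sct encodes secretin, which drives bicarbonate secretion by the pancreas. It was at 246 CPM in library 2 (478 UMIs) and 246 CPM in library 1 (274 UMIs), a ratio of 0.999 (0.860 to 1.16), and at 529 and 270 CPM in the class, a ratio of 1.96 (1.69 to 2.28). It was spread thinly over many cells: 63 of the 131 cells of library 2 and 31 of the 88 of library 1 had at least 1 UMI, but 5 and 2 had 20. A single cell in each library, with 158 and 159 UMIs, held 33.1% and 58.0% of the Sct UMIs.

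Ghrl encodes ghrelin, a hunger signal made mainly in the stomach. It was at 1661 CPM in library 2 (3228 UMIs) and 1604 CPM in library 1 (1785 UMIs), a ratio of 1.04 (0.978 to 1.10), and at 3475 and 1898 CPM in the class, a ratio of 1.83 (1.73 to 1.94). Cells with at least 20 UMIs numbered 10 in library 2 and 12 in library 1. Their median was 223 UMIs in library 2 and 93 in library 1.

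Tac1, which encodes substance P and neurokinin A, had more cells with at least 20 UMIs than any other hormone and was spread most evenly over its cells. It was at 1241 CPM in library 2 (2411 UMIs) and 1403 CPM in library 1 (1562 UMIs), a ratio of 0.884 (0.829 to 0.943), and at 2559 and 1517 CPM in the class, a ratio of 1.69 (1.58 to 1.80). At least 20 UMIs were found in 25 cells of library 2, or 0.671% of kept cells (0.435 to 0.989), and in 21 of library 1, or 0.518% (0.321 to 0.790). Its highest cells had 215 and 188 UMIs and held 8.92% and 12.0% of its UMIs.

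Sst, which encodes somatostatin, a brake on the release of most gut hormones, rested on very few cells. It was at 1407 CPM in library 2 (2734 UMIs) and 2167 CPM in library 1 (2412 UMIs), a ratio of 0.649 (0.615 to 0.686). In each library 3 cells held 99.0% and 99.4% of these UMIs, and without the highest cell of each library the ratio was 1.01. In the enteroendocrine-like class, which takes in the cell with 1091 Sst UMIs, it was 0.775 (0.738 to 0.814), and in the chromogranin-positive cells of the class 1.11 (1.05 to 1.17). In the class 4 cells of library 2 and 5 of library 1 had 20 Sst UMIs or more.

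Gcg encodes proglucagon, the precursor of GLP-1 and GLP-2 in L cells. It was at 1124 CPM in library 2 (2183 UMIs) and 701 CPM in library 1 (780 UMIs), a ratio of 1.60 (1.48 to 1.74), and at 2318 and 785 CPM in the class, a ratio of 2.95 (2.72 to 3.20). A single cell in each library, with 1485 and 656 UMIs, held 68.0% and 84.1% of the Gcg UMIs. The cells with at least 20 UMIs numbered 3 in library 2 and 5 in library 1, so the order of the cell counts was the reverse of that of the UMIs.

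In chromogranin-positive cells Nts, which encodes neurotensin, had 95 UMIs in library 2, of which 35 and 59 were in 2 cells, and 0 in library 1. Pyy, which encodes peptide YY, had 24 UMIs there in library 2, in 3 cells, and 0 in library 1. All kept cells held 107 and 4 UMIs of Nts and 28 and 2 of Pyy. With library 1 set to a floor of 3 UMIs, Nts in chromogranin-positive cells was 18.1-fold and Pyy 4.58-fold higher in library 2. Without the highest cell of library 2 these values were 6.93-fold and 1.35-fold, so each rests largely on 1 cell. They are not lower bounds, as the lower limits of the exact intervals with all cells were 14.5 and 3.45. Both are known mainly from the lower intestine. With none among 88 cells, up to 4.11% of such cells could still have had a UMI by counting error.

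A gene was described as apart where it had at least 100 UMIs over both libraries, a ratio of at least 1.5 either way and an interval that excluded 1, which is a rule of size. In chromogranin-positive cells 7 of the 9 hormones could be measured so, and 3 were apart, Gip and Gcg higher and Sst lower in library 2, where 13.6% of 5461 genes were apart, 6.23% higher and 7.34% lower. Their median log2 ratio was 0.05, against -0.07 over all these genes. Gcg was no longer apart with a threshold of 3 chromogranin UMIs (1.05), after thinning (1.21) or with cells weighted equally (1.29). Sst was no longer apart in the class (0.775), under a stricter cell filter (0.873), after thinning (0.694), with cells weighted equally (0.695) or, as above, without its highest cells. Gip had a ratio of 3.04 or more under every setting tried. In the enteroendocrine-like class Gip, Cck, Sct, Ghrl, Tac1 and Gcg were apart and higher, with a median log2 ratio over the 7 hormones of 0.97. Of 4155 genes measured in the class 21% were apart, 12.2% higher and 8.76% lower, with a median of 0.09. Chgb and Chga were also higher there, at 1.86 and 1.97, so ratios of that size were not limited to the hormones. Poisson intervals take UMIs as independent, and UMIs of 1 cell are not, so the cell counts carry the wider error.

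Of the 131 chromogranin-positive cells in library 2, 78 had at least 5 UMIs of 1 or more hormones, and of the 88 in library 1, 56 had. Several hormones shared a cell in 34 cells of library 2, or 26.0% (18.7 to 34.3), and in 12 cells of library 1, or 13.6% (7.25 to 22.6). These intervals overlapped, but both denominators include cells outside the class, 39 in library 2 and 19 in library 1. Of the cells with at least 5 UMIs of 1 or more hormones, 43.6% in library 2 and 21.4% in library 1 had several. At 20 UMIs each the shares were 9.16% (4.82 to 15.5) and 6.82% (2.54 to 14.3). After thinning to 2000 UMIs per cell, with 13 shallower cells of library 2 and 10 of library 1 left out, they were 10.2% (5.37 to 17.1) and 7.69% (2.88 to 16.0). Among the other kept cells, 1 of 3596 in library 2 and 5 of 3969 in library 1 had 2 hormones at 5 UMIs, and 0 of 238 and 0 of 284 lymphocyte-like cells had. Doublets were not removed, and their part in shared cells was not tested.

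The shared cells centred on Cck. Gip and Cck were both at 5 UMIs or more in 14 cells of library 2 and 2 of library 1, out of 25 and 4 cells with Gip. Cck and Sct shared 12 and 5 cells, and Gip and Sct 7 and 2. Every chromogranin-positive cell with Gcg, 4 in each library, also had Cck, and 4 and 3 of them had Sct. At 20 UMIs each Gip and Cck still shared 5 cells of library 2 and 1 of library 1, and Cck and Gcg 3 and 4. In library 2 both cells with Nts also had Cck, Sct and Gcg, and both cells with Pyy had Cck and Sct. Sct and Tac1 shared 6 and 3 cells at 5 UMIs, and 1 and 0 at 20, and Cck and Tac1 shared 4 and 1, and 1 and 0 at 20.

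Each of the other pairs shared at most 2 cells in a library. Ghrl and Tac1 shared no cell in either library, out of 12 and 13 cells with Ghrl and 35 and 30 with Tac1. Sst and Tac1 shared none either, and Gip and Tac1 shared 1 cell of library 2 and none of library 1. Ghrl and Sst shared 1 cell in each library, and of the 2 kept cells of library 1 with Sst highest outside the threshold, the cell with 1091 Sst UMIs had 68 of Ghrl and the cell with 388 had 19.

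**Figure D2:**
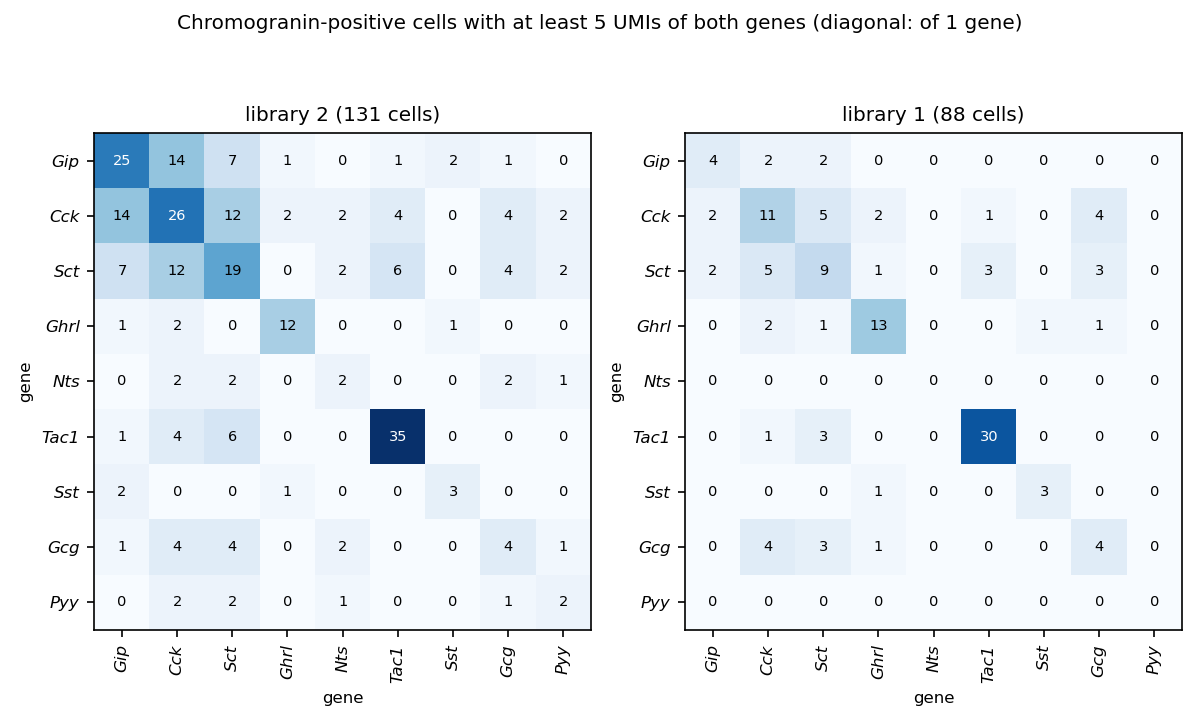
Number of chromogranin-positive cells with at least 5 UMIs of both genes of a pair, with the cells of each gene by itself on the diagonal, for library 2 on the left and library 1 on the right. Darker blue means more cells. In library 2 the largest shared counts are those of Cck, Gip and Sct with each other. All cells with Gcg, 4 in each library, also have Cck. Tac1, at 35 and 30 cells, shares at most 6 with another gene, and Ghrl, at 12 and 13, at most 2.

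Tac1 went with serotonin synthesis. Of the cells with at least 5 UMIs of Tph1, the enzyme that makes serotonin's precursor, 28 of 29 in library 2 and 18 of 19 in library 1 had at least 5 UMIs of Tac1. Sct was in 6 and 2 of them and Cck in 3 and 1, and no other hormone reached 5 UMIs in any. The reverse was looser: of the cells with at least 5 Tac1 UMIs, 28 of 35 and 18 of 30 had at least 5 of Tph1. At 20 UMIs of each gene these were 14 of 25 and 7 of 21. Over the 131 and 88 chromogranin-positive cells the Pearson correlation of log-scaled Tac1 and Tph1 was 0.894 in library 2 and 0.762 in library 1. Correlations between cells share each cell's depth and library and are given as descriptions.

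The balance of the chromogranins differed with the hormone that led a cell, that is, the hormone with most UMIs where that was at least 20. Cells led by Tac1, 25 in library 2 and 21 in library 1, had medians of 71 and 48 Chga UMIs and of 605 and 375 Chgb UMIs. Cells led by Gip, 18 and 4, had medians of 0.5 and 2 Chga UMIs but 73.5 and 52 Chgb UMIs. Cells led by Ghrl, 7 and 9, were the other way round, with 38 and 22 Chga UMIs and 9 and 2 Chgb UMIs. In cells led by Cck, 11 and 6, the medians were 8 and 5.5 Chga and 60 and 22.5 Chgb UMIs, and in the 3 and 2 cells led by Sst they were 0 and 0 Chga and 15 and 8.5 Chgb UMIs. Chga and Chgb chose the cells, so a hormone with little of both is undercounted, as the Sst cells outside the threshold show.

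**Figure D3:**
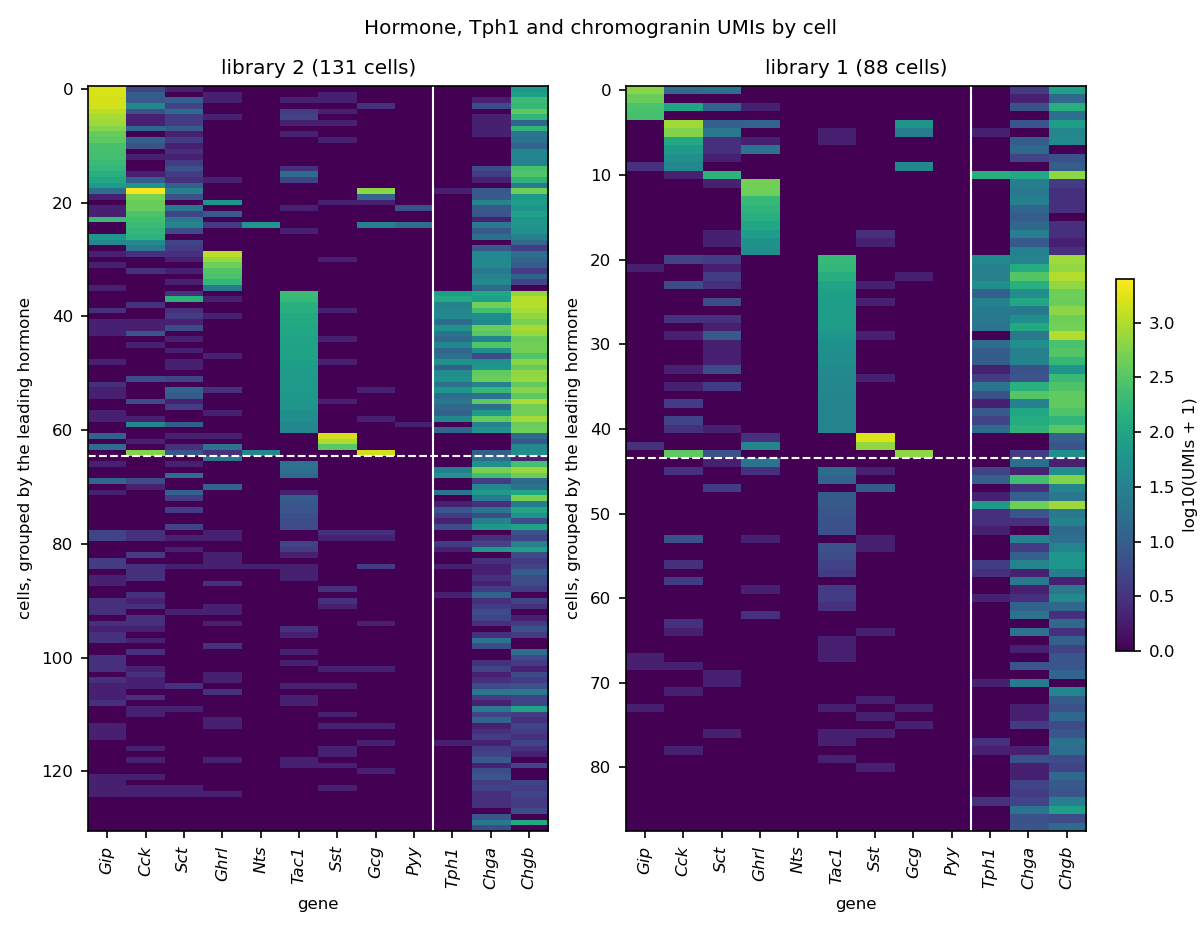
Chromogranin-positive cells as rows, 131 of library 2 on the left and 88 of library 1 on the right, and 9 hormones, Tph1, Chga and Chgb as columns, coloured by log10 of UMIs plus 1. Cells are grouped by the hormone with most UMIs, and those below the dashed line, 66 in library 2 and 44 in library 1, had no hormone at 20 UMIs. Tph1 lies mainly in the Tac1 block, though not in all of its cells, and that block has the highest Chgb. The Gip block has Chgb with almost no Chga, and the Ghrl block has more Chga than Chgb.

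In most cells led by 1 hormone, that hormone made up most of the hormone UMIs, but the lowest shares in a cell were 45.8% for Tac1 and 50% for both Gip and Cck in library 2, and 85.7%, 70.2% and 49.4% for the same genes in library 1. Its median share was 98.2% in cells led by Gip in library 2 and 97.7% in library 1. In cells led by Ghrl its lowest share was 95.8% and 96.3%. In cells led by Cck the median share was lower than in those led by Gip, at 86.7% and 91.8%. The cells led by Gcg, 1 in each library, had 70.4% and 63.9%, with Cck making up most of the rest.

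Some cells of the enteroendocrine-like class had no hormone at 5 UMIs and are called low-hormone cells. They numbered 27 in library 2 and 29 in library 1, with medians of 7752 and 8932 UMIs. The 67 and 51 hormone-rich cells, with a hormone at 20 UMIs, had medians of 9670 and 9013. Low does not mean absent, and a low-hormone cell of library 2 with 746 UMIs in all had 4 of Tac1. Neurog3 is the transcription factor that starts enteroendocrine fate and is then switched off. In the low-hormone cells it was at 395 CPM (317 to 487) in library 2 and 328 CPM (266 to 401) in library 1. In the hormone-rich cells it was at 78.7 CPM (58.6 to 104) and 84.0 CPM (62.2 to 111). Isl1, a factor of later enteroendocrine differentiation, went the other way, at 445 and 152 CPM in low-hormone cells and 877 and 621 CPM in hormone-rich cells. Chgb was at 1667 and 1164 CPM in low-hormone and at 28983 and 18306 CPM in hormone-rich cells. These groups were split by hormone UMIs and the contrasts are descriptions.

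For each hormone, the 3 genes whose log-scaled levels over chromogranin-positive cells correlated most in the library where they correlated less were taken from 3051 genes with at least 200 UMIs. Gip was most like Fabp5, a fatty acid binding protein, with r of 0.867 in library 2 and 0.572 in library 1, then Scg2 (0.687 and 0.370) and Rbp4, the retinol carrier (0.794 and 0.354). Cck was most like Myl7, a myosin light chain best known from the heart atrium, at 0.699 and 0.602, then Scg2 (0.594 and 0.672) and Pax6 (0.554 and 0.567). Sct was most like the membrane mucin Muc3a, at 0.556 and 0.546, then Gpx3 (0.590 and 0.540) and Myl7 (0.550 and 0.539). Myl7 thus stood in the lists of both Cck and Sct, which shared cells.

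Ghrl was most like Maged2 (0.793 and 0.849), the potassium channel gene Kcnk16 (0.668 and 0.746) and Serpina1c (0.661 and 0.827), the last of a family of near-identical genes whose counts could be split between copies. Tac1 was most like the intermediate filament gene Vim (0.818 and 0.863), then Tph1 and Chgb (0.750 and 0.776). Gcg was most like Cck (0.483 and 0.686), Scg2 (0.407 and 0.622) and Scin, an actin-severing protein (0.399 and 0.684). Sst had only weak likenesses, led by Ttr, the thyroid hormone carrier, at 0.264 and 0.314, which with 3 Sst cells in each library carry little weight. Nts and Pyy had too few UMIs for this.

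The library ratios of granule and prohormone processing genes depended on the cells chosen. Of 19 listed, 15 could be measured in chromogranin-positive cells, 2 were apart and higher and 1 apart and lower, with a median log2 ratio of 0.06. In the enteroendocrine-like class 14 of 15 were apart and higher and none lower, with a median of 0.98. Of all genes measured, 6.23% were apart and higher in chromogranin-positive cells and 12.2% in the class. Chga, Chgb, Scg2, Scg3, Scg5, Pcsk1, Pcsk1n and Cpe were also among the markers that named the class, so their levels there are no independent measure. The values that follow are those of chromogranin-positive cells unless the class is named. Scg2, a secretogranin, was at 290 and 175 CPM in library 2 and library 1 (1.66, 1.41 to 1.96) and Scg5, a chaperone of the convertase PC2, at 72.1 and 42.2 CPM (1.71, 1.22 to 2.43). Mboat4, the acyltransferase that activates ghrelin, was at 60.7 and 99.7 CPM (0.609, 0.466 to 0.796), while Ghrl itself had a ratio of 1.04. In the class Mboat4 was not apart, at 1.18 (0.907 to 1.54). Chgb was at 11125 and 11497 CPM and Chga at 3030 and 2906 CPM, but both defined the cells. Cpe, the carboxypeptidase that trims peptides, was at 674 and 488 CPM, and Pcsk1, the convertase that cuts proglucagon to GLP-1, at 445 and 454 CPM.

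Of 23 enteroendocrine transcription factors 22 could be measured, with a median log2 ratio of -0.18 in chromogranin-positive cells and 0.65 in the class. In the class 14 were apart and higher and none lower, where 12.2% of all genes measured were apart and higher. Neurog3, Neurod1, Fev, Rfx6, Isl1, Pax6 and the enterochromaffin gene Tph1 were among the markers that named the class. Pax6, which drives Gcg and Gip in the mouse, was the 1 gene apart and higher, at 174 and 102 CPM in library 2 and library 1 (1.71, 1.38 to 2.14), and Neurog3 the 1 apart and lower, at 46.8 and 77.3 CPM (0.606, 0.446 to 0.824). In the class Neurog3 was at 157 and 147 CPM (1.06, 0.841 to 1.34), so that call was lost, while Pax6 was at 363 and 113 CPM (a ratio of 3.21, apart). Neurod1 was at 608 and 653 CPM, Insm1 at 478 and 460 CPM, Fev at 419 and 553 CPM and Isl1 at 383 and 396 CPM. Of 9 enterochromaffin genes 8 could be measured and 2 were apart and higher, Maoa (1.99, 1.75 to 2.26) and Maob (1.51, 1.10 to 2.12), monoamine oxidases that were highest in enterocyte-like cells. In the class Maoa was not apart, at 0.766 (0.625 to 0.935), and Maob had too few UMIs, while 5 of 7 genes were apart and higher, Tph1 among them at 1.79 (1.61 to 1.99). In chromogranin-positive cells Tph1 was at 491 and 521 CPM (0.942, 0.849 to 1.05), Ddc, the decarboxylase that completes serotonin, at 776 and 752 CPM, and Gch1 at 153 and 179 CPM.

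Nutrient sensors were thinly counted, and 3 of 17 reached 100 UMIs. Ffar1, a receptor of long-chain fatty acids, was at 43.8 CPM in library 2 and 24.3 CPM in library 1 (1.80, 1.16 to 2.89), and Slc5a1, the glucose cotransporter SGLT1, at 273 and 134 CPM (2.04, 1.70 to 2.47), again highest in enterocyte-like cells. In the class Ffar1 was at 3.46 (2.22 to 5.54) and Ffar2 at 1.91 (1.59 to 2.29), both apart, and Slc5a1 at 1.16 was not. In chromogranin-positive cells Ffar2, a receptor of short-chain fatty acids, was at 167 and 160 CPM, and Abcc8, a subunit of the ATP-sensitive potassium channel, had 64 and 30 UMIs. Of 17 other peptide genes 8 had no UMI in chromogranin-positive cells, and only Ucn3, with 74 and 27 UMIs (1.57, 0.998 to 2.54), could be measured. It was not apart there and was apart in the class, at 2.97 (1.89 to 4.81). Nucb2 had 56 and 29 UMIs in chromogranin-positive cells, Iapp 39 and 19 and Nmb, the neuromedin B gene, 3 and 4.

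Receptors of these hormones were scarcely counted in crypt cells. Of 22 listed, 14 had no UMI in chromogranin-positive cells, among them the receptors of cholecystokinin, secretin, ghrelin and substance P. Gipr, the receptor of GIP, was concentrated in the enteroendocrine-like class, at 30.9 CPM in library 2 (29 UMIs) and 40.3 CPM in library 1 (41 UMIs), against 1.76 and 1.79 CPM in stem-like cells. Sstr1 was at 30.9 and 8.85 CPM in that class and Sstr5 at 26.7 and 14.7 CPM, both somatostatin receptors. Sort1, a sorting receptor that also binds neurotensin, had a ratio of 0.985 (0.792 to 1.23) in chromogranin-positive cells. It was counted in other classes too, at 161 and 174 CPM in stem-like and 160 and 143 CPM in goblet-like cells. Its level was highest in tuft-like cells, at 276 and 200 CPM. Glp1r, named after its values were seen, was at 3.20 CPM in library 2 and 11.8 CPM in library 1 in the enteroendocrine-like class, against 127 CPM (124 UMIs) and 216 CPM (176 UMIs) in lymphocyte-like cells.

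Outside the enteroendocrine cells the hormones were read for background. Lymphocyte-like cells, which should lack them, had 50.1 CPM of Gip in library 2 and 6.14 CPM in library 1. That was 0.794% and 0.436% of the level in chromogranin-positive cells. Cells outside the class held 57.0% and 26.6% of the UMIs behind those chromogranin-positive levels, and in the class Gip was at 13031 and 1635 CPM. In lymphocyte-like cells Cck was at 21.5 and 12.3 CPM, but 7 of the 10 Cck UMIs of library 1 lay in 1 cell. Without that cell the level was 3.70 CPM. Sst was at 16.4 and 7.37 CPM, Ghrl at 13.3 and 7.37 CPM and Tac1 at 6.14 and 6.14 CPM. At least 1 Gip UMI was seen in 54.2% of chromogranin-positive cells and 14.3% of lymphocyte-like cells in library 2, and in 11.4% and 1.76% in library 1. Median depths were 11074 and 3227 UMIs in library 2 and 11159.5 and 2438 in library 1, and thinned to 2000 UMIs the Gip shares were 20.3% and 7.65% in library 2 and 5.13% and 0.952% in library 1. Of these lymphocyte-like cells, 0 of 238 and 1 of 284 reached 5 UMIs of any hormone, but deeper cells crossed that level. Among kept cells outside both the threshold and the class, 15 of 3580 in library 2 and 4 of 3948 in library 1 had 5 Gip UMIs or more, with median depths of 27429 and 8746.5 UMIs. None of them had 20, so the counts at 5 Gip UMIs can include background and those at 20 are the firmer ones.

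For 6 hormones the library ratio in other cells had an interval that overlapped that in the enteroendocrine-like class. For Gip it was 7.97 in the class and 7.59 (6.69 to 8.64) in other kept cells with under 5 UMIs of each hormone, where Gip was at 44.7 CPM in library 2 and 5.89 CPM in library 1. The ratio in the class and in those other cells was 2.62 and 2.94 (2.60 to 3.32) for Cck, 1.96 and 1.71 (1.45 to 2.02) for Sct, and 1.83 and 2.05 (1.81 to 2.33) for Ghrl. It was 1.69 and 1.73 (1.44 to 2.08) for Tac1, 2.95 and 2.51 (1.99 to 3.19) for Gcg, and 0.775 and 0.982 (0.873 to 1.10) for Sst, the 1 hormone near level in the other cells and the 1 whose intervals did not overlap. Of the Sct UMIs in those other cells, 217 of 384 in library 2 and 149 of 239 in library 1 were in goblet-like cells. Those other cells include 13 cells of the class in each library, with 3 Gip UMIs in library 2 and 0 in library 1. Both readings also come from the same 2 cell pools, so the second is not independent of the first.

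**Figure D4:**
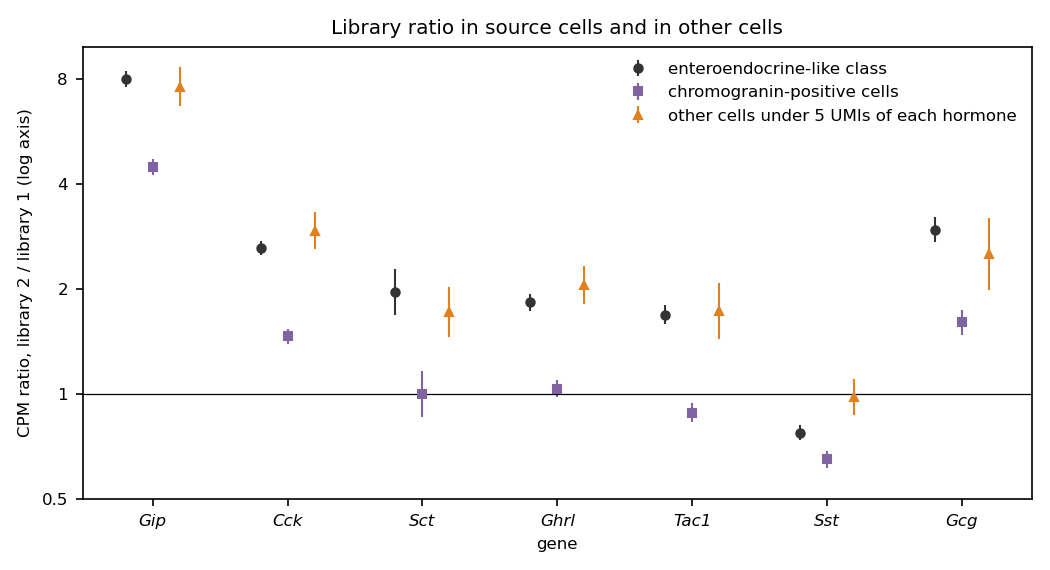
Ratio of CPM in library 2 to library 1 on a log axis for the 7 hormones with at least 100 UMIs, with exact 95% counting intervals, in the enteroendocrine-like class (black circles), chromogranin-positive cells (purple squares) and other cells with under 5 UMIs of each hormone (orange triangles). The line marks a ratio of 1. Circles and triangles lie close together except for Sst, as at 7.97 and 7.59 for Gip, and the squares lie below both, at 4.48 for Gip. For Sst the circle, at 0.775, is nearer the square, at 0.649, than the triangle, at 0.982.

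Sct was the 1 hormone with another epithelial class whose interval lay above that of the lymphocyte-like cells in both libraries. In goblet-like cells, the mucus-secreting lineage, it was at 34.5 CPM (30.1 to 39.3) in library 2 and 26.1 CPM (22.2 to 30.6) in library 1. In lymphocyte-like cells it was at 2.05 CPM (0.248 to 7.39) and 1.23 CPM (0.0311 to 6.84), and in stem-like cells at 2.29 and 1.04 CPM. Among goblet-like cells 26.6% of library 2 and 24.9% of library 1 had at least 1 Sct UMI, against 0.840% and 0.352% of lymphocyte-like cells, and thinned to 2000 UMIs the shares were 7.62% and 5.23%, against 1.02% and 0.476%.

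Within a library the hormones kept no common ratio in goblet-like cells. Outside the chromogranin threshold, Sct made up 22.2% of the hormone UMIs of goblet-like cells in library 2 and 35.9% in library 1, against 1.65% and 2.59% in chromogranin-positive cells. The cluster led by Clca1, Zg16 and Fcgbp, genes of mature goblet cells, had 43.9 and 41.5 CPM, and the cluster led by Agr2 and Creb3l1, genes of earlier goblet cells, had 20.1 and 18.4 CPM. Tuft-like cells had 19.9 and 11.1 CPM and Paneth-like cells 12.0 and 8.92 CPM. Gip, by comparison, made up 29.3% of the hormone UMIs of goblet-like cells and 42.2% of those of chromogranin-positive cells in library 2. In Paneth-like cells the intervals of Gip, at 91.5 CPM (80.2 to 104), and of Cck and Ghrl lay above those of lymphocyte-like cells in library 2. In library 1, with Gip at 12.1 CPM (8.40 to 17.0), they overlapped them. Sst was at 26.4 CPM (20.5 to 33.4) in the Paneth-like cells of library 2 and 26.1 CPM (20.4 to 32.8) in those of library 1, and lay above the lymphocyte-like interval in library 1 only. Goblet-like cells had at most a few Sct UMIs each, and 1 of 598 in library 2 and 1 of 466 in library 1 had 5 or more, while the class level in the enteroendocrine-like cells was 529 and 270 CPM.

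**Figure D5:**
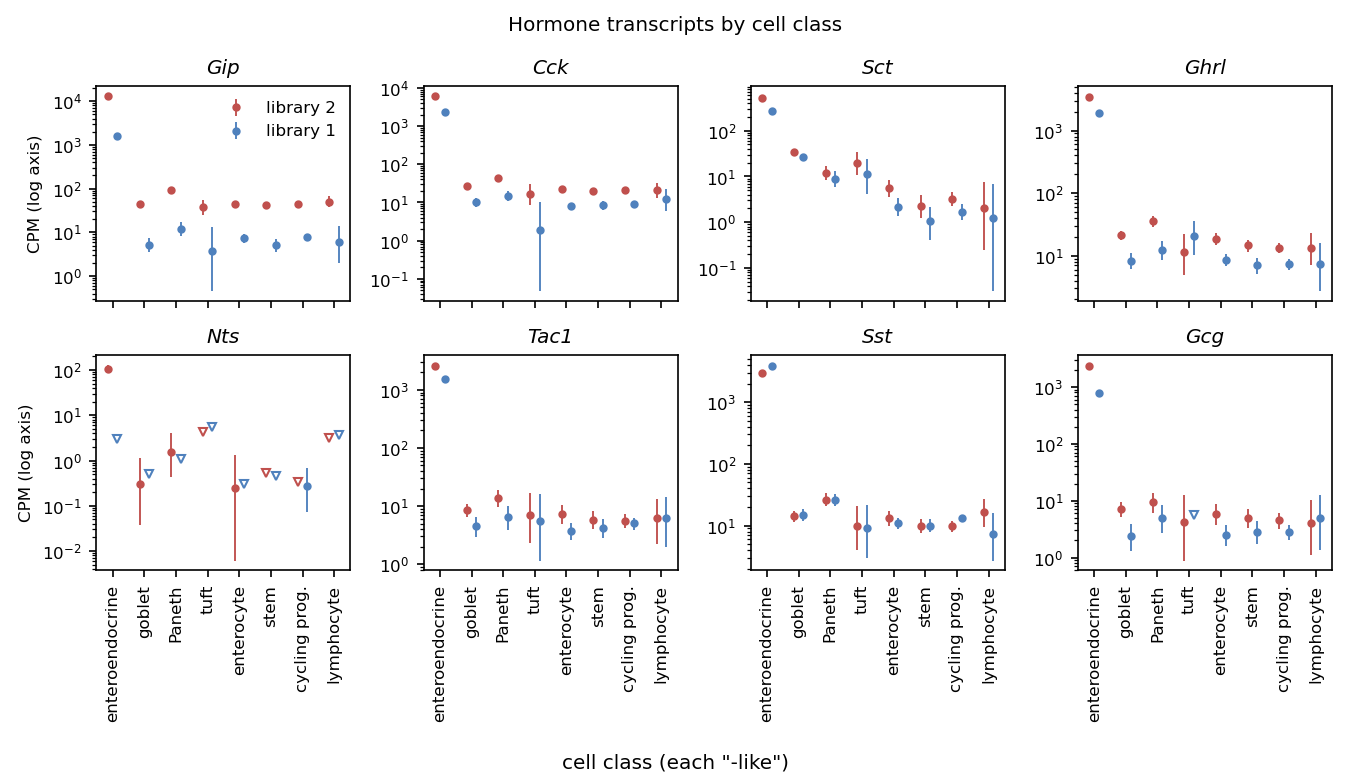
CPM of 8 hormones on a log axis in 8 cell classes named from markers, with library 2 (red) left of library 1 (blue) in each class and exact Poisson 95% intervals, and open triangles at the level of 3 UMIs where none was counted. Pyy, with 28 and 2 UMIs in all kept cells, is left out. Each hormone is highest in enteroendocrine-like cells, except Nts in library 1, which had no UMI there, and Sct is next highest in goblet-like cells, at 34.5 and 26.1 CPM.

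The chromogranin threshold missed 11 kept cells with at least 20 UMIs of a hormone, 3 in library 2 and 8 in library 1. Of these, 9 were in the enteroendocrine-like class. The cell with 1091 Sst UMIs had 21117 UMIs in all, while 1 of library 2 with 119 Cck, 36 Ghrl, 22 Sct and 5 Nts UMIs had 1168. The remaining cells were a goblet-like cell of library 2 with 33 Ghrl UMIs and a cycling progenitor-like cell of library 1 with 39 Cck UMIs.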

How the data were processed

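The authors deposited raw UMI counts per gene and barcode as 1 matrix of both libraries, used as deposited. The submitters' processing notes name Cell Ranger 2.1.1 and mm10, and the cell calling step was not given in the sources used here. Counts of 43 shared symbols were merged. Cells were clustered with scanpy 1.11.5 (10000 UMIs per cell, log scale, 2000 variable genes, 30 components, 15 neighbours, Leiden resolution 1, libraries not integrated), and clusters were named from marker lists. Classes may therefore differ from those of the study. No doublet caller was applied.

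CPM is the sum of UMIs over the summed UMIs of a group of cells. Ratios carry exact conditional intervals of 2 Poisson counts from scipy 1.17.1. The members and gene lists were chosen with earlier results of these data known. Named genes were all 9 hormones, the 3 most alike per hormone, and from each list the 4 with most UMIs plus those apart. The rule of size was tested on simulated independent Poisson counts, where 86% of 200 genes changed 2-fold were recovered and 0.832% of the others were called. UMIs of 1 cell are not independent, so that test cannot show false calls that come from single cells. Alternatives covered cell filters, the chromogranin threshold, thinning, cell weighting, the hormone threshold and leaving out the deepest or highest cells.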

Additional observations from a re-analysis of the deposited data

Results flagged for a closer look

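Hormone signal also stood in barcodes that the cell filter removed and that no comparison above used. At least 20 Gip UMIs were found in 4 removed barcodes of library 2 and 3 of library 1, and at least 5 chromogranin UMIs in 17 removed barcodes of library 2 and 14 of library 1. Removed barcodes with at least 20 UMIs of any hormone numbered 7 in each library. With no cell filter, 25 barcodes of library 2 and 8 of library 1 had at least 20 Gip UMIs.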

How the results depend on the processing

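No paired analysis was possible because each group is 1 library and no label ties barcodes to samples. Ratios are of library 2 to library 1 in chromogranin-positive cells. With a threshold of 3 chromogranin UMIs they were 3.04 for Gip, 0.949 for Cck, 0.684 for Sct, 0.701 for Ghrl, 0.597 for Tac1, 0.442 for Sst and 1.05 for Gcg. With a threshold of 20 they were 12.8, 2.89, 1.83, 2.72, 1.66, 19.8 and 3.15 in the same order, so Sst turned. In the enteroendocrine-like class they were 7.97, 2.62, 1.96, 1.83, 1.69, 0.775 and 2.95. In the chromogranin-positive cells of that class they were 7.62, 2.49, 1.71, 1.76, 1.52, 1.11 and 2.73, so Sst turned here too. Thinned to 2000 UMIs they were 13.3 for Gip, 1.12 for Cck, 0.904 for Ghrl, 1.07 for Tac1, 0.694 for Sst and 1.21 for Gcg. With cells weighted equally they were 5.31 for Gip, 1.19 for Cck, 1.49 for Sct, 0.947 for Ghrl, 1.06 for Tac1, 0.695 for Sst and 1.29 for Gcg. Without the highest cell of each library they were 6.33 for Gip, 1.59 for Sct, 0.915 for Ghrl, 1.01 for Sst, which thus turned, and 3.22 for Gcg. The stricter cell filter gave 1.38 for Cck, 0.918 for Ghrl and 0.873 for Sst, and no cell filter 3.58 for Gip. Gip alone was at 3.04 or more under each of these settings.

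The share of chromogranin-positive cells with 2 or more hormones was 7.89% in library 2 and 6.52% in library 1 at 3 chromogranin UMIs, and 39.7% in library 2 at 20. It was 10.2% in library 2 and 7.69% in library 1 after thinning. It was 37.0% in library 2 within the class. The library 1 shares at 20 chromogranin UMIs and within the class are not given, so those settings show no library contrast here. Counted from 1 UMI on it was 79.4% and 50.0%, from 10 UMIs on 16.8% and 9.09%, and from 20 UMIs on 9.16% and 6.82%. The cause of these shifts was not tested. In all, 39 of these main results moved by less than their interval, 57 moved further and 3 turned, and of the other values 136 and 134 did the first and the second. Cell counts with no filter or a stricter one, the background with no filter, and the chromogranin-positive cells of the class, were added after seeing the data. The numbers of cells with Sst, Gcg, Nts and Pyy limit what these libraries can show.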
